A study of Homo sapiens with 12 samples.

Results

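The transcripts of HMOX1, BACH1 and 8 further genes of the NRF2 pathway were followed in HUDEP-2, a human line of red cell precursors that was immortalised from cord blood and grows on SCF. The 10 genes were NFE2L2, BACH1, MAFG, SQSTM1, HMOX1, NQO1, GCLM, GCLC, TXNRD1 and SRXN1, and all 10 were found by symbol among the 54628 genes of the count table. The set was chosen by the level of HMOX1, which had been seen to differ between replicate 1 and replicates 2 and 3 in these libraries, and was filled with genes known to belong to the same pathway. That difference is therefore described below without a test, while the comparisons of treatments and of guides, which the rule does not use, were tested. Earlier results of these data, treatments and guides included, were known when the set was made.

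RNA-seq covered 12 libraries in 4 groups of 3. Cells carried a lentiviral construct for CRISPR interference, a nuclease-dead Cas9 fused to the KRAB repressor domain, with either a scrambled guide (sgControl) or a guide to an element upstream of EGR1 (sgEGR1), and both were GFP-sorted populations and not clones. All cells had been expanded with SCF, EPO, dexamethasone and doxycycline, were starved for 5 h, and then received PBS or SCF, the ligand of Kit, at 50 ng/mL for 1 h. The study describes the replicates as individually isolated, and the labels give no culture or day for them, so p-values measure the spread between these libraries.

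NRF2, encoded by NFE2L2, is a transcription factor that KEAP1 marks for degradation until oxidants or electrophiles block KEAP1. It pairs with small MAF proteins such as MAFG at antioxidant response elements and activates genes of glutathione synthesis, thioredoxin recycling and quinone detoxification, while BACH1 occupies the same elements with the same partners as a repressor. Heme binds BACH1 and removes it from DNA, which links HMOX1, the enzyme that degrades heme, to the heme load of erythroid cells.

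Promoter sequences were examined first, for the letters that the factors of this pathway and of the targeted gene are known to read. The RefSeq promoter table (GRCh38.p14) matched 9 of the 10 genes by symbol, with 15 windows of 250 bases before an annotated start, and HMOX1 was not among them. The core letters of the antioxidant response element, TGACNNNGC on either strand, occurred in 3 windows of 2 genes, GCLM and TXNRD1. Over all 35116 windows of the table, 10.9% held these letters. The EGR letters GCGTGGG, searched because the guide was aimed at EGR1, occurred in 2 windows, of BACH1 and NFE2L2, against 6.19% of all windows. The AP-1 letters TGANTCA occurred in the same window of BACH1 and in no other of the 15, against 6.57% of all windows. Matches of different motifs did not overlap in these windows. The windows with a match are printed 5′ to 3′ on the strand of the gene, with the matched letters in capitals and, for the downstream start of TXNRD1, the 30 bases around the match only.
GCLM, chr1:93909431-93909680, minus strand: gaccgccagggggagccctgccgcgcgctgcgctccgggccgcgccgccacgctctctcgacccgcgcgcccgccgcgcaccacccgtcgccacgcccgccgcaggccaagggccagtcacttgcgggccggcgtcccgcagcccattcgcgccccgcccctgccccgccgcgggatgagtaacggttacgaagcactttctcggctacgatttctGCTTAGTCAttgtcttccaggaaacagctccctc
TXNRD1, upstream start, chr12:104215529-104215778, plus strand: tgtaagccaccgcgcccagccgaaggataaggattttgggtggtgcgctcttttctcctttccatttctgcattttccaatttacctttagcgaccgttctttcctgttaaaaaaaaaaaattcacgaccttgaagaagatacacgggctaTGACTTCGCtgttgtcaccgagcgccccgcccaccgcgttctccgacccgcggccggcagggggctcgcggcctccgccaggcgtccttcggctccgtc
TXNRD1, downstream start, chr12:104286920-104286949, plus strand: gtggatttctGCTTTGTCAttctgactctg
BACH1, chr21:29298672-29298921, plus strand: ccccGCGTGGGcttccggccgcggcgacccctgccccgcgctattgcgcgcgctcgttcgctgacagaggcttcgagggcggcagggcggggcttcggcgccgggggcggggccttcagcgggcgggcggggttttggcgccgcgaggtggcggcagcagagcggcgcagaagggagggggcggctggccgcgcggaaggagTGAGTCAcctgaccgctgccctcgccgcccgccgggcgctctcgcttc
NFE2L2, chr2:177264132-177264381, minus strand: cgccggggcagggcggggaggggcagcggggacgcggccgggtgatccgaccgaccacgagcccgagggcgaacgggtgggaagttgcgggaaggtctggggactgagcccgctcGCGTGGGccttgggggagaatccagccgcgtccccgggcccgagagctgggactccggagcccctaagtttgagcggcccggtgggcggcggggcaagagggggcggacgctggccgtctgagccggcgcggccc
In the GCLM window the core reads from the opposite strand, 34 to 26 bases before the start. Both TXNRD1 matches lie about as far from their starts, at 99 to 91 bases on the strand of the gene for the upstream start and at 102 to 94 bases on the opposite strand for the downstream start. In BACH1 the EGR letters lie 246 to 240 bases and the AP-1 letters 48 to 42 bases before the start, and in NFE2L2 the EGR letters lie 135 to 129 bases before it. A match is a stretch of letters and not a measured binding site. Sequence outside these windows was not searched, so a gene without a match may hold the letters elsewhere.

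Library totals ranged from 23.5 to 32.04 megacounts, with 23.5 to 29.11 after PBS and 28.4 to 32.04 after SCF, so depth was higher on the whole with SCF. Levels are given as CPM, counts per megacount of a library total scaled by TMM factors, and intervals given with the tests use the spread between libraries. The label of the line held: 13 of 14 erythroid markers exceeded 3 counts in every library. HBG1 was the exception, running from 0 to 4769 counts between libraries. The 14 summed to 26100 to 31030 CPM, of which HBB, at a mean of 14860 CPM, was the largest part. Markers of T cells and of monocytes or granulocytes summed to less than 1 CPM in each library, with CD3E, MPO and ELANE at 0. EGR1 averaged 8.10 ± 2.51 CPM (SD, n = 3) in sgControl cells and 1.38 ± 0.580 CPM in sgEGR1 cells after PBS. After SCF it stood at 171 to 239.5 CPM in sgControl cells and at 40.4, 57.4 and 204 CPM in sgEGR1 cells. For EGR1 the third of these values, from the library labelled sgEGR1 SCF replicate 3, was inside the sgControl range and went against its label. In all 3 same-numbered pairs after PBS, EGR1 was lower in sgEGR1 cells. By edgeR, EGR1 was not called between guides after PBS (log2 fold change -2.59, adjusted p = 0.999) or after SCF (-1.03, adjusted p = 1), also not with the replicate number as a block (adjusted p = 0.37 and 0.664). DESeq2 on all 12 libraries called EGR1 after PBS (-2.56, DESeq2 adjusted p = 0.0381) and not after SCF (-1.04). With sgEGR1 SCF replicate 3 dropped, edgeR called EGR1 after SCF (-2.08, edgeR adjusted p = 0.0189) and not after PBS (-2.59, edgeR adjusted p = 0.0658). Once a term for replicate 1 was added as well, EGR1 was called in both, at -2.60 (edgeR adjusted p = 0.0161) and -2.08 (edgeR adjusted p = 0.00122).

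All 10 genes passed the filter on low counts, with counts from 67 for NQO1 in its lowest library to 12537 for SQSTM1 in its highest. Per length of the MANE Select transcript, the most abundant transcripts were SQSTM1, at a mean of 115 CPM per kb over the 12 libraries, and GCLC, at 93.5 CPM per kb. NFE2L2 followed at 36.3, and SRXN1, MAFG, BACH1 and TXNRD1 lay close together at 20.04, 17.01, 15.97 and 15.56 CPM per kb. HMOX1 averaged 9.42 CPM per kb with a range of 5.73 to 16.1, which held the whole range of GCLM, 7.90 to 10.3. NQO1 was the least abundant at 1.42 CPM per kb. The ranges over libraries of SQSTM1 and GCLC overlapped, as did those of SRXN1, MAFG, BACH1 and TXNRD1 with one another. The range of HMOX1 reached into those of SRXN1, MAFG, BACH1 and TXNRD1 too, so the ranges do not fix the order within these sets.

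**Figure D1:**
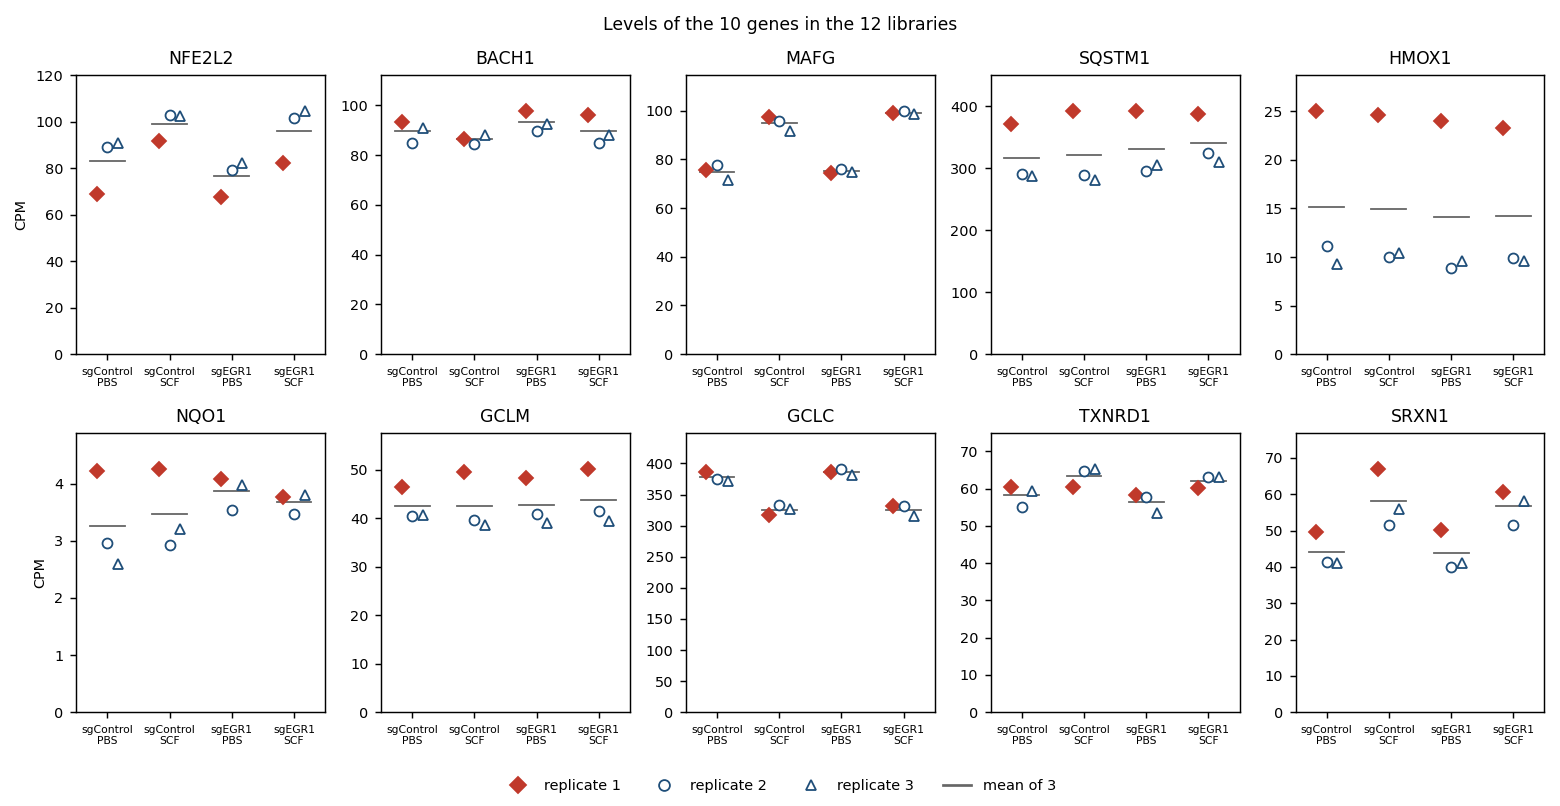
Levels of the 10 genes in CPM (y axes, each from 0) in the 3 libraries of each group (x axes), with red diamonds for replicate 1, open circles and triangles for replicates 2 and 3, and bars for the mean of 3. MAFG, SRXN1, GCLC and, narrowly, NFE2L2 separate PBS from SCF within each guide group. HMOX1, GCLM and SQSTM1 separate replicate 1, with HMOX1 at 23.3 to 25.0 CPM there and at 8.91 to 11.1 CPM elsewhere.

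The question of the SCF comparison is which transcripts acute Kit activation changes within 1 h. MAFG rose and GCLC fell in each guide group, and these were the 2 of 10 genes called in either group alone. Averaged over both guide groups, 4 of 10 were called, since SRXN1 and NFE2L2 also rose. HMOX1, BACH1, SQSTM1, GCLM, NQO1 and TXNRD1 did not pass the test in any of the 3 comparisons. Tests used edgeR's quasi-likelihood F test over 15492 genes, and a gene was called where its p, adjusted by Benjamini-Hochberg, was under 0.05. Over all genes, 2.12% were called higher and 0.775% lower in sgControl cells, 1.81% and 0.788% in sgEGR1 cells, and 5.58% and 3.45% in the average. In bulk RNA, a change of transcript level per cell and a change in the mix of cells cannot be told apart.

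Among the regulators, MAFG had the most even response. MAFG (chr17:81918270-81927735, minus strand, GRCh38 as in GENCODE v44) encodes a small MAF protein, the DNA-binding partner of both NRF2 and BACH1. In sgControl cells it stood at 75.5, 77.6 and 71.5 CPM after PBS and at 97.3, 95.8 and 91.7 CPM after SCF in replicates 1, 2 and 3. In sgEGR1 cells the values were 74.6, 76.1 and 74.9 CPM after PBS and 99.2, 99.9 and 98.8 CPM after SCF. All 6 SCF libraries lay above all 6 PBS libraries. The log2 fold change was 0.34 ± 0.04 (SE) in sgControl cells (edgeR adjusted p = 0.00102) and 0.40 ± 0.04 in sgEGR1 cells (edgeR adjusted p = 0.000417), or 1.27-fold and 1.32-fold. After SCF the 3 sgEGR1 libraries lay above the 3 sgControl libraries, but the difference of 0.06 (95% interval -0.03 to 0.16) was not called (edgeR adjusted p = 1). Up to 105 exonic bases of MAFG are shared with SIRT7 on the same strand and up to 224 with a noncoding gene on the opposite strand. Shared bases are given here and below as the most with any single exon of the other gene, so totals may be larger.

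NFE2L2 (chr2:177218667-177392756, minus strand) encodes NRF2 itself. Its 3 sgControl libraries read 69.0, 89.0 and 91.1 CPM after PBS and 91.9, 103 and 102.5 CPM after SCF. The sgEGR1 libraries read 67.7, 79.4 and 82.4 CPM after PBS and 82.5, 102 and 105 CPM after SCF. Replicate 1 was the lowest library of every group, and within each guide group the SCF libraries lay above the PBS libraries, though narrowly, at 91.9 against 91.1 CPM in sgControl cells and at 82.49 against 82.41 CPM in sgEGR1 cells. Each same-numbered pair was higher after SCF, by 0.17 to 0.41 on the log2 scale over 6 pairs. Numbers were not taken to pair PBS with SCF beyond replicate 1, so such pair counts, here and below, only describe the values. The average log2 fold change was 0.29 ± 0.08 (SE), or 1.23-fold, with an edgeR adjusted p of 0.0456. The responses within a guide group, 0.26 in sgControl and 0.33 in sgEGR1 cells, were not called on their own (edgeR adjusted p = 0.343 and 0.186). With a term for replicate 1 in the model, both were called, at 0.26 ± 0.04 (edgeR adjusted p = 0.00245) and 0.33 ± 0.04 (edgeR adjusted p = 0.000488). The averaged call held when sgControl PBS replicate 3, sgControl SCF replicate 1 or sgEGR1 SCF replicate 1 was left out and was lost on leaving out any other library, with edgeR adjusted p from 0.055 to 0.113. NFE2L2 shares up to 3225 exonic bases with HNRNPA3 on the opposite strand. Whether strand was used in counting is not stated, so the counts of NFE2L2 are uncertain.

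BACH1 (chr21:29194071-29630751, plus strand), the heme-sensing repressor, moved little. After PBS it stood at 93.5, 84.7 and 91.0 CPM in sgControl cells and at 97.7, 89.5 and 92.5 CPM in sgEGR1 cells. After SCF it stood at 86.5, 84.7 and 87.9 CPM in sgControl cells and at 95.9, 84.7 and 87.9 CPM in sgEGR1 cells. All 4 groups overlapped with their neighbours in the order of means. The averaged log2 fold change was -0.06 (95% interval -0.14 to 0.03, edgeR adjusted p = 0.452), with 0 of 6 same-numbered pairs higher after SCF and the difference nearest to 0 at -0.000864. SQSTM1 (chr5:179806398-179838078, plus strand), which encodes the autophagy adaptor p62 that sequesters KEAP1, stood at 371, 291 and 288 CPM after PBS and at 392.1, 289.9 and 281.7 CPM after SCF in sgControl cells. In sgEGR1 cells SQSTM1 stood at 392.5, 296 and 305 CPM after PBS and at 388, 325 and 310 CPM after SCF. Replicate 1 was the highest library of each group, and treatments overlapped. SQSTM1 had an averaged log2 fold change of 0.03 (95% interval -0.20 to 0.26, edgeR adjusted p = 0.915). Its exons share up to 803 bases with MRNIP on the opposite strand.

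Among the targets, SRXN1 rose and GCLC fell. SRXN1 (chr20:646615-653200, minus strand) encodes sulfiredoxin, which restores over-oxidised peroxiredoxins. It stood at 49.7, 41.3 and 41.0 CPM after PBS and at 66.9, 51.5 and 56.0 CPM after SCF in sgControl cells. In sgEGR1 cells it stood at 50.2, 39.9 and 41.1 CPM after PBS and at 60.6, 51.6 and 58.2 CPM after SCF. Every SCF library lay above every PBS library, and replicate 1 was the highest library of each group. The averaged log2 fold change of 0.39 ± 0.08 (SE), or 1.31-fold, was called (edgeR adjusted p = 0.0114). In each guide group alone the responses of 0.40 and 0.38 missed the threshold (edgeR adjusted p = 0.105 and 0.127), and with a term for replicate 1 both were called (edgeR adjusted p = 0.000631 and 0.000978). A further gene model on the same strand shares up to 2292 exonic bases with SRXN1, so the counts of SRXN1 are uncertain.

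GCLC (chr6:53497341-53616970, minus strand) encodes the catalytic subunit of glutamate-cysteine ligase, the rate-limiting enzyme of glutathione synthesis. Its levels after PBS were 386.5, 375 and 371 CPM in sgControl cells and 387, 391 and 382 CPM in sgEGR1 cells. After SCF they were 317, 332.5 and 327 CPM in sgControl cells and 331.5, 331 and 315 CPM in sgEGR1 cells. The 6 SCF libraries all lay below the 6 PBS libraries. GCLC fell by 0.21 ± 0.04 (SE) on the log2 scale in sgControl cells (edgeR adjusted p = 0.0112) and fell by 0.25 ± 0.04 in sgEGR1 cells (edgeR adjusted p = 0.00466). In sgControl cells the call was lost on leaving out sgControl SCF replicate 1, with a log2 fold change of -0.19 and an edgeR adjusted p of 0.05.

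The modifier subunit GCLM (chr1:93885199-93909456, minus strand) did not pass the test. GCLM stood at 46.5, 40.4 and 40.7 CPM after PBS and at 49.5, 39.5 and 38.6 CPM after SCF in sgControl cells. In sgEGR1 cells it stood at 48.2, 40.9 and 39.0 CPM after PBS and at 50.1, 41.5 and 39.3 CPM after SCF. Within a group, replicate 1 was the library that stood apart, and treatment groups overlapped. Its averaged log2 fold change was 0.02 (95% interval -0.17 to 0.20, edgeR adjusted p = 0.947), and with a term for replicate 1 the interval was -0.06 to 0.08. The ratio of GCLC to GCLM counts ran from 8.03 to 9.77 in the 6 PBS libraries and from 6.41 to 8.48 in the 6 SCF libraries, so the pooled ranges overlapped. In each of the 6 same-numbered pairs the ratio was lower after SCF. Within replicate 1 it was 8.03 to 8.32 after PBS and 6.41 to 6.62 after SCF, and within replicates 2 and 3 it was 9.13 to 9.77 and 7.98 to 8.48, with no overlap in either.

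TXNRD1 (chr12:104215779-104350307, plus strand), the cytosolic thioredoxin reductase, lay just outside the threshold. It read 60.4, 55.0 and 59.3 CPM after PBS and 60.3, 64.8 and 65.2 CPM after SCF in sgControl cells. In sgEGR1 cells it read 58.3, 57.6 and 53.4 CPM after PBS and 60.2, 63.0 and 63.2 CPM after SCF. Replicate 1 of sgControl cells was level between treatments, and the other 5 pairs were higher after SCF. The averaged log2 fold change was 0.13 ± 0.04 (SE) with an edgeR adjusted p of 0.0543, and with a term for replicate 1 it was called at the same size (edgeR adjusted p = 0.0222). NQO1 (chr16:69706996-69726668, minus strand), the quinone reductase often used as a readout of NRF2 activity, stood at 4.23, 2.95 and 2.60 CPM after PBS and at 4.25, 2.93 and 3.21 CPM after SCF in sgControl cells. In sgEGR1 cells NQO1 stood at 4.09, 3.54 and 3.98 CPM after PBS and at 3.76, 3.47 and 3.81 CPM after SCF, so treatments overlapped under both guides. Its averaged log2 fold change was 0.01 with a 95% interval of -0.29 to 0.31, wider than for any other of the 10 genes except HMOX1, and it had the lowest counts. GCLC, NQO1 and BACH1 share up to 305, 347 and 45 exonic bases with genes on the opposite strand. On the same strand, GCLC, NFE2L2 and BACH1 share up to 304, 429 and 190 exonic bases with noncoding genes, which counting by strand would not separate.

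HMOX1 (chr22:35380361-35394214, plus strand) showed no detectable response to SCF. It stood at 25.0, 11.1 and 9.31 CPM after PBS and at 24.6, 9.97 and 10.4 CPM after SCF in sgControl cells. In sgEGR1 cells it stood at 24.0, 8.91 and 9.56 CPM after PBS and at 23.3, 9.92 and 9.59 CPM after SCF. In every group replicate 1 stood far above the other 2 libraries, which overlapped between PBS and SCF in sgControl cells and were slightly apart in sgEGR1 cells. The averaged log2 fold change was 0.00 with a 95% interval of -0.81 to 0.81 (edgeR adjusted p = 1), wide because replicate 1 counted as spread within each group. With a term for replicate 1 the estimate was 0.01 and the interval -0.10 to 0.12.

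**Figure D2:**
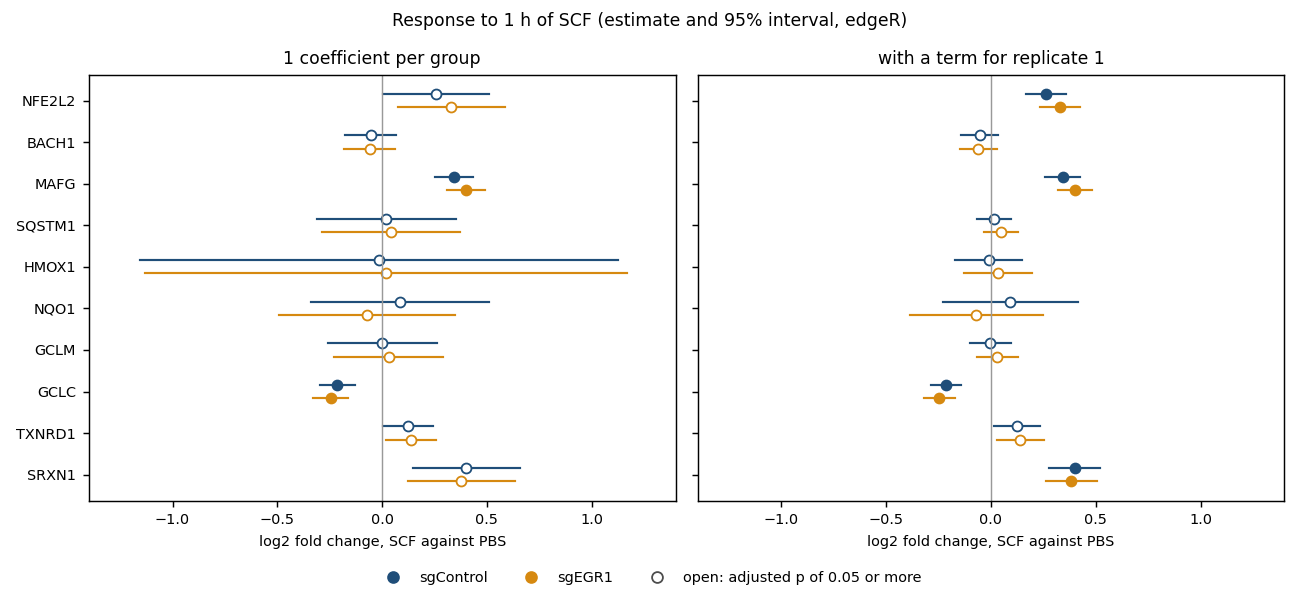
Log2 fold change of SCF against PBS (x axes) for each gene (y axis) in sgControl (blue) and sgEGR1 (orange) cells, with lines for the 95% interval and filled points for an edgeR adjusted p under 0.05, from the model with 1 coefficient per group (left) and with a further term for replicate 1 (right). The left panel shows 2 genes called in each guide group and the right panel 4, beside 8.32% (sgControl) and 8.56% (sgEGR1) of all genes with that term, and the interval of HMOX1 in sgControl cells narrows from -1.16 to 1.12 on the left to -0.17 to 0.15 on the right.

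The sgEGR1 guide was meant to reduce EGR1, so its comparison with sgControl asks whether these transcripts change with the guide. EGR1 itself still rose after SCF in sgEGR1 cells, by 6.22 on the log2 scale, against 4.66 in sgControl cells. Without sgEGR1 SCF replicate 3 the rise in sgEGR1 cells was 5.18. Its induction was thus not removed, and whether these transcripts depend on that induction was not tested. None of the 10 genes was called between guides after PBS, after SCF, or for the difference of the SCF responses. No gene of all 15492 was called by edgeR in these comparisons either (0% in each), while 715, 361 and 306 genes had an unadjusted p under 0.05, which was the case for 0 of the 10 genes. DESeq2 called 20, 5 and 4 genes, and the blocked edgeR fit, in which numbers pair the guide groups, called 2, 2 and 0, with 0 of the 10 among them in each. In that paired fit NFE2L2 after PBS, at -0.11 on the log2 scale, and SQSTM1 after SCF, at 0.09, had an unadjusted p of 0.029 and 0.0286 (edgeR adjusted p = 0.424 and 0.809). The largest difference after PBS was that of NQO1, at 0.24 on the log2 scale (95% interval -0.18 to 0.67), and after SCF that of NQO1 at 0.09 (95% interval -0.33 to 0.51). For HMOX1 the difference between guides was -0.11 after PBS and -0.07 after SCF, and with a term for replicate 1 the intervals were -0.28 to 0.05 and -0.23 to 0.09. For MAFG, the SCF responses differed by 0.06 (95% interval -0.07 to 0.19), for GCLC by -0.03 (-0.15 to 0.08), for SRXN1 by -0.02 (-0.38 to 0.34) and for NFE2L2 by 0.07 (-0.29 to 0.43). With sgEGR1 SCF replicate 3 left out, since its EGR1 level went against its label, 0 of the 10 genes were called in these 3 comparisons. Without it, the SCF response of sgEGR1 cells was 0.41 for MAFG (edgeR adjusted p = 0.00225) and -0.22 for GCLC (edgeR adjusted p = 0.0312).

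Replicate 1 against replicates 2 and 3 is the contrast by which the genes were brought together, and it is given as values only. HMOX1 stood at 23.3 to 25.0 CPM in the 4 replicate 1 libraries and at 8.91 to 11.1 CPM in the 8 others, a ratio of means of 2.46. The difference on the log2 scale was 1.29, 1.27, 1.37 and 1.25 in sgControl PBS, sgControl SCF, sgEGR1 PBS and sgEGR1 SCF. It was thus of similar size with and without SCF and under both guides. Of all 15492 genes tested, 100 (0.645%) had a larger mean difference in this direction.

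Of the other genes, GCLM and SQSTM1 also had ranges that did not overlap. GCLM stood at 46.5 to 50.1 CPM in replicate 1 and at 38.6 to 41.5 CPM in the others, and SQSTM1 at 371 to 392.5 CPM and at 282 to 325 CPM. The count was 3 of 10 genes higher in replicate 1 and 0 of 10 lower, beside 5.54% and 6.24% of all genes. The 3 include HMOX1, whose difference in this contrast led to the choice of the set. The count is therefore not comparable with these shares. SRXN1 and NQO1 were higher in replicate 1 in each of the 4 groups, by 0.26 and 0.31 on average on the log2 scale, with ranges that overlapped between the sets of libraries. NFE2L2 was lower in each of the 4 groups, with differences of -0.16 to -0.38. BACH1, the repressor of HMOX1, was higher by 0.09 on average and MAFG by 0.01, and GCLC and TXNRD1 differed by less than 0.01. Of the subunits of glutamate-cysteine ligase, the modifier thus carried the replicate 1 difference, 0.28 on average, and the catalytic subunit the SCF difference. The count ratio of HMOX1 to BACH1 was 0.243 to 0.285 in replicate 1 and 0.0995 to 0.131 in the others.

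**Figure D3:**
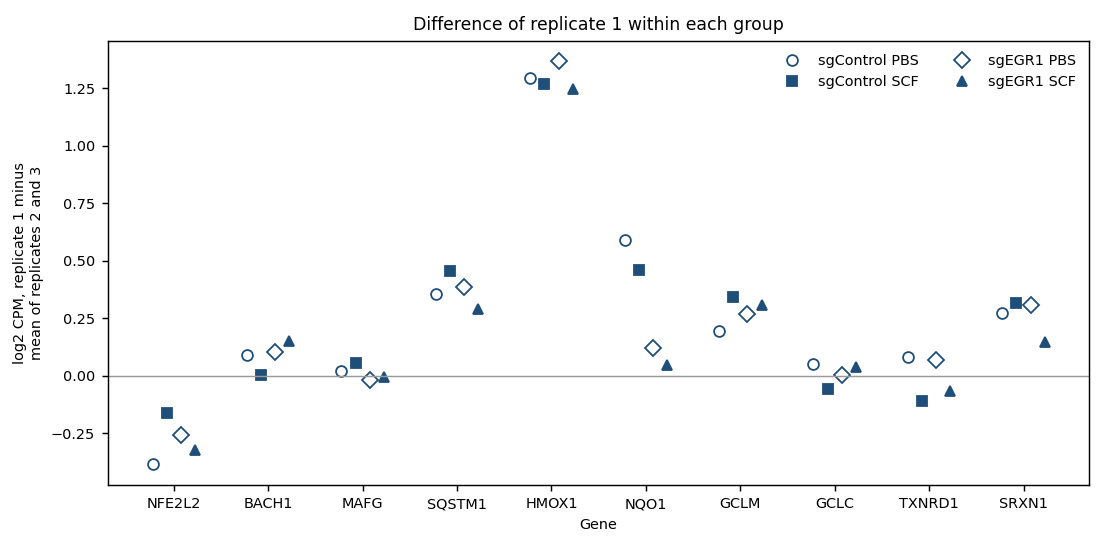
Difference in log2 CPM between replicate 1 and the mean of replicates 2 and 3 (y axis) for each gene (x axis), with 1 point for each of the 4 groups, open for PBS and filled for SCF. The 4 points of HMOX1 lie between 1.25 and 1.37, those of SQSTM1, GCLM and SRXN1 above 0 and those of NFE2L2 below 0.

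Library features that moved with replicate 1 were sought beside this difference. Totals were 23.5 to 31.24 megacounts in replicate 1 and 25.78 to 32.04 in the others, and the summed erythroid markers were 26100 to 29260 CPM and 27410 to 31030 CPM, so both overlapped. Of 4 megakaryocyte markers only ITGA2B, also carried by early progenitors, was detected, at 12.01 to 15.79 CPM in replicate 1 and 20.25 to 35.16 CPM in the others, with PF4, PPBP and GP9 at 0 in every library. The immediate early gene FOS, chosen after its values were seen, was also higher in replicate 1 of every group. After PBS, FOS stood at 21.5, 5.24 and 5.20 CPM in sgControl cells and at 16.7, 2.53 and 3.52 CPM in sgEGR1 cells. After SCF, FOS stood at 146, 15.5 and 12.01 CPM in sgControl cells and at 141, 15.4 and 13.9 CPM in sgEGR1 cells. The part of ITGA2B-bearing cells, or of what moved FOS, in the level of HMOX1 was not tested. The labels name no day, batch or operator for the replicate numbers, so what separates replicate 1 cannot be told apart from its number.

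The variation of each gene over the 12 libraries was divided into shares for replicate 1, SCF, the guide and the rest, on log2 CPM. HMOX1 had 98.4% of its variation on replicate 1, GCLM 92.7% and SQSTM1 91.2%. A large share was to be found for HMOX1, since its difference in replicate 1 led to the choice of the set. MAFG had 95.8% on SCF and GCLC 94.0%. NFE2L2 and SRXN1 were divided, with 51.0% and 67.4% on SCF and 40.7% and 27.0% on replicate 1, in opposite directions for NFE2L2 and in the same direction for SRXN1. The guide took at most 18.4%, in NQO1. Over all genes the median shares were 15.4% for replicate 1, 11.2% for SCF and 4.27% for the guide.

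**Figure D4:**
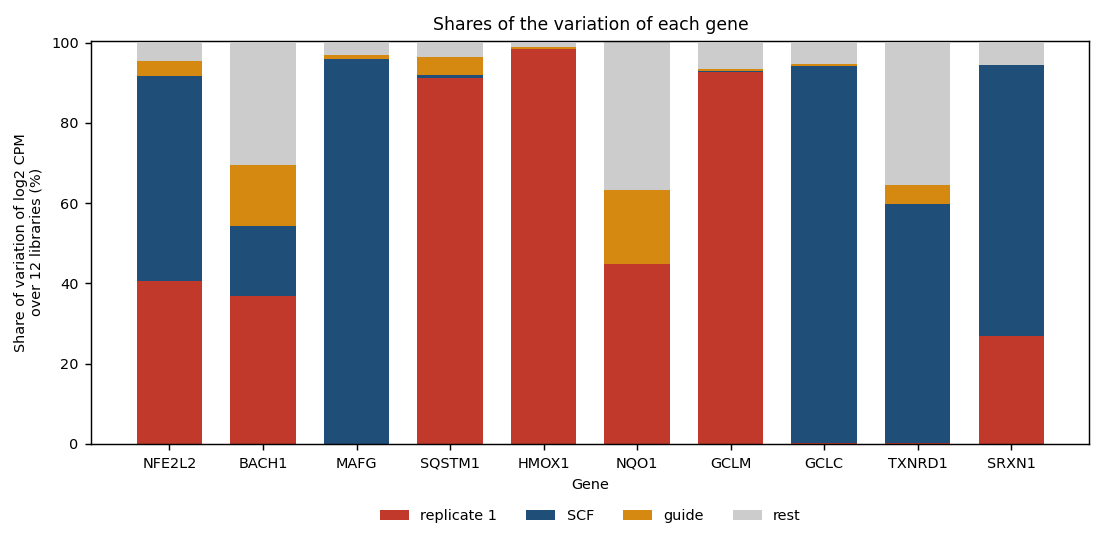
Share of the variation of log2 CPM over 12 libraries (y axis, in percent, from 0) for each gene (x axis), stacked as replicate 1 (red), SCF (blue), guide (orange) and rest (grey). HMOX1, GCLM and SQSTM1 are almost wholly red, at 98.4%, 92.7% and 91.2%, and MAFG and GCLC almost wholly blue, at 95.8% and 94.0%.

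The genes with the pattern most like that of HMOX1 were found by the root mean square difference of centred log2 CPM over the 12 libraries, among 9861 genes with a mean of at least 5 CPM. The nearest was RENBP, a renin-binding protein and sugar epimerase, at 0.09, with 16.6 to 18.0 CPM in replicate 1 and 6.45 to 7.98 CPM in the others. CDHR1, a cadherin-related protein, and UAP1L1 followed at 0.12 each, and then CCDC22, a subunit of an endosomal sorting complex, and PRG2, the major basic protein of eosinophil granules, at 0.17 each. CDHR1 stood at 56.0 to 66.7 CPM in replicate 1 and at 20.05 to 26.4 CPM in the others, and PRG2 at 66.2 to 95.9 CPM and at 24.9 to 29.1 CPM. The median over all candidates was 0.63. Among the other genes of the pathway, SQSTM1 ranked 226, GCLM 409 and SRXN1 780, and NFE2L2 ranked 9421, near the far end, while NQO1 was below the minimum level. All these distances come from the same 12 libraries and share their depth and scaling.

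Beyond the 10 genes, 61 further genes were listed from textbook knowledge, of which 54 were tested. They were regulators of the pathway and genes of glutathione, thioredoxin, NADPH, heme and iron, and detoxification functions. A place in this list does not make a gene a target of NRF2 or BACH1. The SCF comparison called 1 of 54 higher and 1 lower in sgControl cells, 2 and 1 in sgEGR1 cells, and 3 and 1 in the average, against the shares of all genes given above. The median log2 fold change of the 54 was 0.017 in the average, beside -0.0045 over all genes. With a term for replicate 1 the calls numbered 4, 6 and 10 of 54, beside 8.32%, 8.56% and 18.5% of all genes called in that fit, so the share in the average was that of all genes. Between guides and for the interaction, 0 of the 54 were called.

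The called genes belonged to several branches of this list, and whether NRF2 or BACH1 acts on them was not tested. CHAC1, a glutathione-degrading enzyme, rose from 1.65 ± 0.0639 CPM (SD, n = 3) to 7.30 ± 2.48 CPM in sgControl cells and from 1.69 ± 0.170 to 8.11 ± 2.99 CPM in sgEGR1 cells, with an averaged log2 fold change of 2.20 (edgeR adjusted p = 5.92e-05). TXNIP, which binds and inhibits thioredoxin, fell from 372 ± 13.2 to 235 ± 30.4 CPM in sgControl cells and from 400.1 ± 45.6 to 260.2 ± 11.01 CPM in sgEGR1 cells, with an averaged log2 fold change of -0.64 (edgeR adjusted p = 9.49e-05). These 2 genes were the ones called in each of the 3 SCF comparisons. MAFF, a further small MAF, rose in sgEGR1 cells from 2.34 ± 0.657 to 4.35 ± 0.334 CPM (log2 fold change 0.90, edgeR adjusted p = 0.0279), and its sgControl response of 0.78 was not called (edgeR adjusted p = 0.0536). The averaged response of MAFF was 0.84 (edgeR adjusted p = 0.00236). CBR1, a carbonyl reductase, rose in the average by 0.23 on the log2 scale (edgeR adjusted p = 0.0137).

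Other regulators did not pass the test. KEAP1, the inhibitor of NRF2, averaged 195.5 ± 3.16 CPM after PBS and 207 ± 1.79 CPM after SCF in sgControl cells, with an averaged log2 fold change of 0.07 (95% interval 0.01 to 0.12, edgeR adjusted p = 0.126). MAFK, the third small MAF, had an averaged log2 fold change of 0.33 (95% interval 0.09 to 0.58, edgeR adjusted p = 0.094). NFE2, the erythroid relative of NRF2, had 0.05 (edgeR adjusted p = 0.689). The ferritin genes FTH1 and FTL, which store the iron that heme breakdown releases, had 0.03 and -0.01 (edgeR adjusted p = 0.892 and 0.958). By branch, the averaged comparison called 1 of 8 regulators, 1 of 11 genes of glutathione synthesis and use, 1 of 11 of the thioredoxin and peroxiredoxin systems, 0 of 6 of NADPH supply, 0 of 7 of heme and iron handling and 1 of 11 of detoxification and export. Over all genes this comparison called 5.58% higher and 3.45% lower, so 1 call in a branch of this size is near the background.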

How the data were processed

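Per the labels, HUDEP-2 libraries were made with a Universal Plus mRNA-Seq kit, whereas the study's methods name a strand-specific TruSeq kit. Alignment was to hg38 (HISAT2 in the submitters' processing notes), and the authors deposited estimated counts per gene from StringTie. The annotation release, the handling of multi-mapping reads and the use of strand in counting are not given in the sources used here, which leaves overlapping genes uncertain. The count columns carry a guide code that was read as sgEGR1 by elimination, the scrambled control being the only other construct. All values were whole, so rounding to whole numbers changed none.

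Genes were filtered with filterByExpr (15492 kept), scaled by TMM and tested with edgeR 4.0.16 in R 4.3.3 (quasi-likelihood, 1 coefficient per group, all 12 libraries, Benjamini-Hochberg over all genes tested). Group values are mean ± SD. The code was tested on simulated counts. Members and gene lists were chosen with earlier results of these data known. All 10 members were named, genes of the further list if called or if KEAP1, NFE2, MAFK, FTH1, FTL or TXNIP, and the 5 genes nearest to HMOX1. Shares of variation are sums of squares of log2(CPM + 0.1). Gene positions came from GENCODE v44, and promoters from RefSeq. Replicates of a group all differed by more than sampling noise (chi-square per degree of freedom 4.37 to 20.4). Deviations of same-numbered libraries correlated at 0.248, 0.113 and 0.132 between guides after PBS and at 0.291, 0.111 and 0.135 after SCF, so numbers were taken to pair these groups. The labels give only the numbers. A fit with the replicate block is among the alternatives, with DESeq2 1.42.0, RLE scaling, no filter, a term for replicate 1, subsets of libraries and leaving out each library.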

Additional observations from a re-analysis of the deposited data

How the results depend on the processing

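No called value of the 10 genes changed sign under the 19 alternatives, and MAFG was called in all 19 for each SCF comparison, GCLC in 18 for sgControl and in 19 for the others, and SRXN1 in 19 for the average. The count of the 10 genes called for SCF was 2 in each guide group, and 4 in each with the replicate block, with a term for replicate 1, with replicates 2 and 3 only, and with a term for replicate 1 and no sgEGR1 SCF replicate 3, NFE2L2 and SRXN1 being added each time. DESeq2 called 3 in each, with SRXN1 added. Leaving out each library in turn gave 1 to 2 in sgControl cells, the count of 1 coming without sgControl SCF replicate 1, 2 in sgEGR1 cells, 3 to 5 in the average and 0 between guides and for the interaction. NFE2L2 was called for the average in 9 of 19 alternatives and TXNRD1 in 6.

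Same-numbered PBS and SCF libraries correlated at 0.293, 0.0151 and 0.117 in sgControl cells and at 0.251, 0.0817 and 0.0696 in sgEGR1 cells. Replicate 1 thus shared deviations across treatments about as much as between guides, and replicates 2 and 3 shared less. Numbers were therefore not taken to pair PBS with SCF beyond replicate 1. In each guide group 3 of 6 libraries correlated best with their own number, and the cause of the added calls was not tested. Over all genes the SCF calls in sgControl and sgEGR1 cells numbered 448 and 402, against 759 and 773 by DESeq2. They numbered 1184 and 1235 with the block and 1289 and 1326 with a term for replicate 1. With replicates 2 and 3 only, 575 and 690 of 15506 genes were called. With the term and no sgEGR1 SCF replicate 3, 1186 and 778 of 15824 genes were called. Leaving out 1 library gave 194 to 448 and 176 to 428. The averaged calls numbered 1399, against 2799 with the block, 2868 with the term and 1032 to 1408 on leaving out 1 library. Without sgEGR1 SCF replicate 3 and with the term, edgeR called 51, 38 and 2 genes after PBS, after SCF and for the interaction, against 0, with 0 of the 10 among them. Between guides the block called 2 genes after PBS and 2 after SCF, none of them among the 10, and it changed no other call there. The replicate 1 ranges of 3 genes stayed apart with RLE scaling and without sgEGR1 SCF replicate 3. Counts for NQO1, 67 to 136 per library, limit what could be seen for it.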
